A study of Rattus norvegicus with 12 samples.

Results

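GABA-A receptor subunits were followed in the hippocampus of rats bred for high or low exploratory activity. The genes were taken by name, through the Entrez number of each rat gene: of 7 listed subunit genes, 6 had a row among the 9962 genes measured (Gabra3, Gabra4, Gabra5, Gabrb1, Gabrb2 and Gabrd), and Gabra2 was not analysed here. Whole hippocampus was taken from adult male rats of the 4th selected generation, aged P102-107 per the sample labels, with 1 rat per Affymetrix Rat Expression Set 230 A array. Bred High Responder rats (bHR) come from parents that moved a lot in an unfamiliar field and bred Low Responder rats (bLR) from parents that moved little. Each line had 6 arrays, and after the submitters' quality control 5 bHR and 5 bLR arrays remained for every main comparison. Expression is given as log2 values. The labels do not say whether rats of a line were littermates, so p-values measure the spread between these rats only.

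GABA-A receptors are pentameric chloride channels that open when GABA binds, and they carry most fast inhibition in the hippocampus. A receptor combines alpha and beta subunits, which form the GABA binding sites, with a gamma or delta subunit, which helps to set its place on the cell and its pharmacology. In the rodent hippocampus the alpha5 subunit (Gabra5) is enriched in pyramidal cells, where much of it lies outside synapses, and the alpha4 and delta subunits (Gabra4, Gabrd) pair in dentate granule cells to carry a tonic current. Alpha3 (Gabra3) is scarce in the adult hippocampus, and beta1 and beta2 (Gabrb1, Gabrb2) are partners of several alpha subunits. In tissue RNA, fewer cells of a type and less RNA per cell cannot be told apart.

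The arrays differed in the integrity of their signal within both lines. The 5' minus 3' value of the beta-actin control probe sets, which falls when the 5' part of a transcript is lost, was -2.30 to -1.39 on bHR arrays and -3.65 to -1.36 on bLR arrays, on the log2 scale. It was lowest on bLR replicate 3, bLR replicate 2 (-2.89) and bHR replicate 6, which were also the lowest for dap, a bacterial control RNA, and these 3 arrays are called 5'-poor. Markers found in neurons of all kinds, 7 measured of 8 listed, averaged 9.40 to 9.62 on bHR arrays and 9.43 to 9.62 on bLR arrays.

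Of the subunits, Gabra4 varied most between arrays. It read 6.32, 5.85, 6.35, 5.90 and 5.49 on bHR replicates 2 to 6, against 6.24, 4.98, 4.61, 5.96 and 6.23 on bLR replicates 1, 2, 3, 4 and 6. The bHR arrays all lay within the span of the bLR arrays or just above it, and the lowest values of each line were on the 5'-poor arrays. Over the 10 arrays Gabra4 spanned 1.74 log2 units, while the other members spanned 0.30 (Gabrd) to 0.74 (Gabra5).

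Gabrb1 lies next to Gabra4 in the RefSeq gene order, with 0 protein-coding genes between them. It encodes the beta1 subunit and read 8.78, 8.78, 8.74, 8.90 and 9.19 on bHR replicates 2 to 6, against 8.89, 8.90, 9.16, 8.87 and 9.16 on bLR replicates 1, 2, 3, 4 and 6. The lines overlapped, and the array with the lowest Gabra4 signal, bLR replicate 3, was among the higher ones for Gabrb1. On the other side of Gabra4 lie Gabra2 and then the gamma subunit gene Gabrg1, which did run with Gabra4 (r = 0.921, line means removed).

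The promoters of Gabra4 and Gabrb1 are shown because these genes lie side by side yet did not share a course over the arrays. Between the 2 genes r was -0.426 with line means removed, and 0.00018 once the beta-actin value was also taken out. A part of the promoters in this was not tested. The promoters are from RefSeq (GRCr8), 250 bases before to 50 bases after the start, read 5' to 3' along each gene. That of Gabra4 is at chr14:36944497-36944796 on the plus strand and that of Gabrb1 at chr14:36902844-36903143 on the minus strand. Capitals mark the Sp1 box GGGCGG or its reverse, found once in Gabra4.
Gabra4: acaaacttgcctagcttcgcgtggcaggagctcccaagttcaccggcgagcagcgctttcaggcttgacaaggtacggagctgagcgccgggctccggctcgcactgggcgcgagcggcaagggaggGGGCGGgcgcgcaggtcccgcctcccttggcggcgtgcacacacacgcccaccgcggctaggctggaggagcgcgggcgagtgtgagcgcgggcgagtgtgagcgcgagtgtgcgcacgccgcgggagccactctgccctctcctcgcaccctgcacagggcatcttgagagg
Gabrb1: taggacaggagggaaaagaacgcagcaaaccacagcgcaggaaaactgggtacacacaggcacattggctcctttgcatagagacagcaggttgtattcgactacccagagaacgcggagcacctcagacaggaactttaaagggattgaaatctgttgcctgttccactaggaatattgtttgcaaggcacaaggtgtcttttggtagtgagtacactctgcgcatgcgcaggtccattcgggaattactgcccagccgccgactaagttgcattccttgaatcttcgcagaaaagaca
The Gabra4 window held 70.7% G and C, with 35 CpG pairs, and the Gabrb1 window 49.3%, with 11. The median over 33469 rat promoters was 51.7%. The Sp1 box on either strand was in 33.1% of those promoters, the TGACG element of the CREB family in 21.2% and the TATA box TATAAA in 14.2%. Neither TGACG nor TATAAA stood in the 2 windows printed. The arrays measured transcripts and not promoters, so these letters describe the genes only.

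Gabra5 read 8.49, 8.36, 8.27, 7.90 and 8.64 on bHR replicates 2 to 6. On bLR replicates 1, 2, 3, 4 and 6 it read 8.31, 8.38, 8.58, 8.31 and 8.35. The bHR values lay on both sides of the bLR values, and the array with the highest value of each line was one of the 5'-poor arrays. Gabra3 read 4.83, 4.58, 4.86, 4.98 and 4.56 on bHR replicates 2 to 6, against 4.62, 4.57, 4.45, 4.82 and 4.86 on bLR replicates 1, 2, 3, 4 and 6. Its signal was dim, since 19.2% of the genes measured had a lower mean, and the lines overlapped over most of their range.

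Gabrb2 read 6.54, 6.55, 6.61, 6.65 and 6.62 on bHR replicates 2 to 6, against 6.57, 6.41, 6.38, 6.54 and 6.81 on bLR replicates 1, 2, 3, 4 and 6. The bHR arrays were close together, with an SD of 0.046, and all fell inside the wider bLR range, with an SD of 0.17. Gabrd read 5.43, 5.25, 5.32, 5.44 and 5.39 on bHR replicates 2 to 6. On bLR replicates 1, 2, 3, 4 and 6 it read 5.46, 5.39, 5.42, 5.49 and 5.55. Most bHR values lay below most bLR values, but the ranges shared the stretch between 5.39 and 5.44. Signals of different probe sets depend on their probes, so the order of these levels is not an order of transcript abundance.

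**Figure D1:**
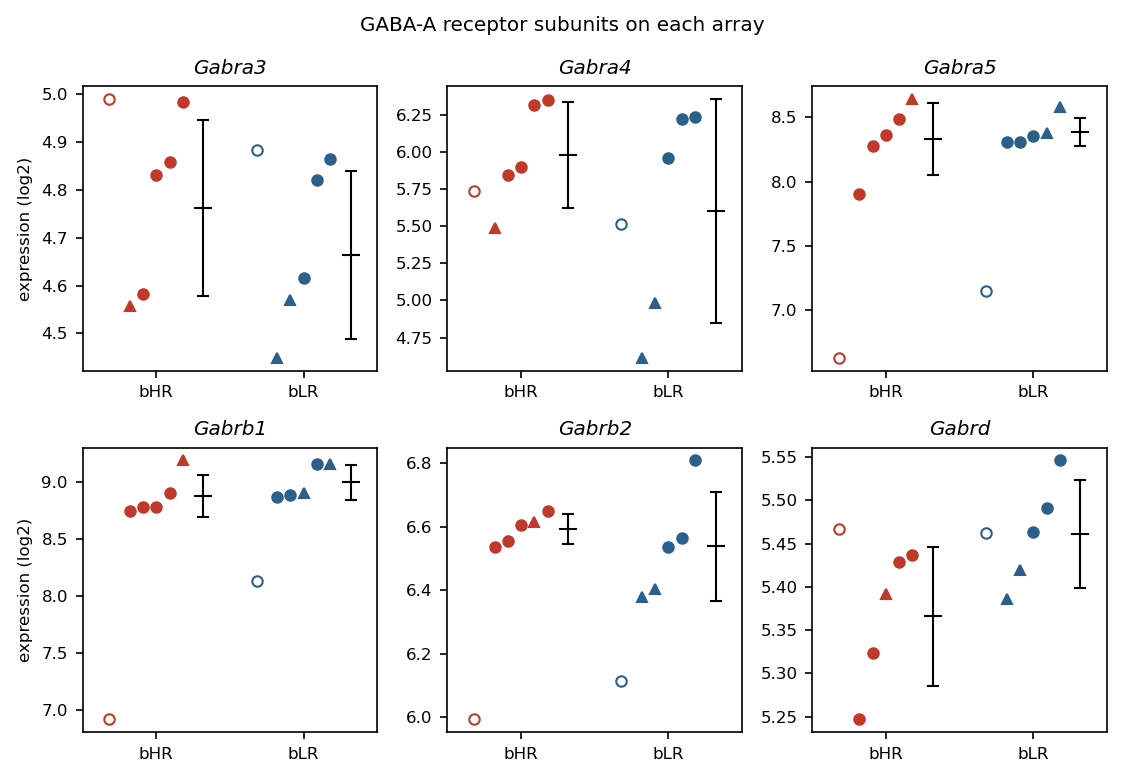
Expression (log2) of each measured subunit on every array, bHR left and bLR right. Filled symbols are arrays that passed, triangles the 5'-poor arrays, open circles the failed arrays, and bars the mean and SD of the 5 passing arrays. Gabra4 spans 1.74 log2 units over the passing arrays, and the lines overlap for all 6 subunits.

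The comparison of bHR with bLR asked whether subunit expression differs between lines bred for opposite exploratory behaviour. No member passed the test between the lines: with limma and Benjamini-Hochberg adjustment over 9962 genes, 0 of the 6 passed an adjusted p of 0.05, each having an adjusted p of 0.992. Among all genes 0% did. Without adjustment, limma put 0 of the 6 members under a p of 0.05, beside 2.94% of all genes, and a two-sided exact permutation test gave 0 of the 6. The lines overlapped for all 6, and did not overlap for 0.291% of all genes. The means were higher in bHR for 3 members and lower for 3, with a median difference of 0.00046 on the log2 scale, against 0.00078 over all genes.

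Among the alpha subunits, Gabra4 averaged 5.98 ± 0.36 on bHR arrays and 5.60 ± 0.76 on bLR arrays (SD, 5 arrays each), and the difference was 0.38 on the log2 scale with a 95% confidence interval of -0.32 to 1.07. This was a wider difference than for 99.6% of genes, but the SD within bLR was larger still, and the difference changed with the arrays used. It was 0.040 (95% confidence interval -0.14 to 0.22) once the fit held the beta-actin value, and -0.038 (-0.34 to 0.27) without the 5'-poor arrays, 1 of bHR and 2 of bLR. Leaving out bLR replicate 3 alone brought it to 0.13.

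Gabra3 averaged 4.76 ± 0.18 on bHR arrays and 4.66 ± 0.17 on bLR arrays (SD, 5 arrays each), which differ by 0.099 (95% confidence interval -0.12 to 0.32). The difference was 0.022 with the beta-actin covariate, 0.047 without the 5'-poor arrays, 0.043 without bHR replicate 5 and 0.15 without bHR replicate 6. For Gabra5 the mean was 8.33 ± 0.28 on bHR arrays and 8.39 ± 0.11 on bLR arrays (SD, 5 arrays each), and the difference was -0.053 (-0.31 to 0.20). It was 0.055 without bHR replicate 5, which had the lowest Gabra5 value of its line.

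Of the beta subunits, Gabrb1 averaged 8.88 ± 0.18 on bHR arrays and 8.995 ± 0.15 on bLR arrays (SD, 5 arrays each), and the difference was -0.12 (95% confidence interval -0.33 to 0.089). It was -0.20 without bHR replicate 6 and -0.077 without bLR replicate 3, and -0.17 (-0.34 to -0.0013) without the 5'-poor arrays, with a limma adjusted p of 0.981 over all genes. Gabrb2 averaged 6.59 ± 0.046 on bHR arrays and 6.54 ± 0.17 on bLR arrays (SD, 5 arrays each), and the difference was 0.054 (-0.11 to 0.22), which became -0.050 without the 5'-poor arrays. It was 0.0041 with the beta-actin covariate, 0.014 and 0.021 when bLR replicate 3 or bLR replicate 2 was left out, and 0.12 without bLR replicate 6. Both intervals over the 10 arrays left out a difference of 0.38, the size seen for Gabra4.

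Gabrd, the delta subunit, had the smallest p of the members. It averaged 5.37 ± 0.080 on bHR arrays and 5.46 ± 0.062 on bLR arrays (SD, 5 arrays each), and the difference was -0.095 (SE 0.049; 95% confidence interval -0.20 to 0.012). Its unadjusted limma p was 0.076, and the two-sided exact permutation test gave p = 0.079, where 5 against 5 can reach 0.0079. The value was -0.12 with the beta-actin covariate and -0.14 without the 5'-poor arrays. In those fits the interval just excluded 0, while the adjusted p over all genes stayed at 0.9999 and 0.981. The dentate granule cell markers, which label cells where Gabrd is expressed, had a median difference of 0.11 over 5 measured of 10 listed. Over all genes the median was 0.00078. By limma 0 of the 5 passed, beside 0% of all genes, and 0 had an unadjusted p under 0.05, beside 2.94%. The part that cell content plays in the Gabrd difference was not tested.

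**Figure D2:**
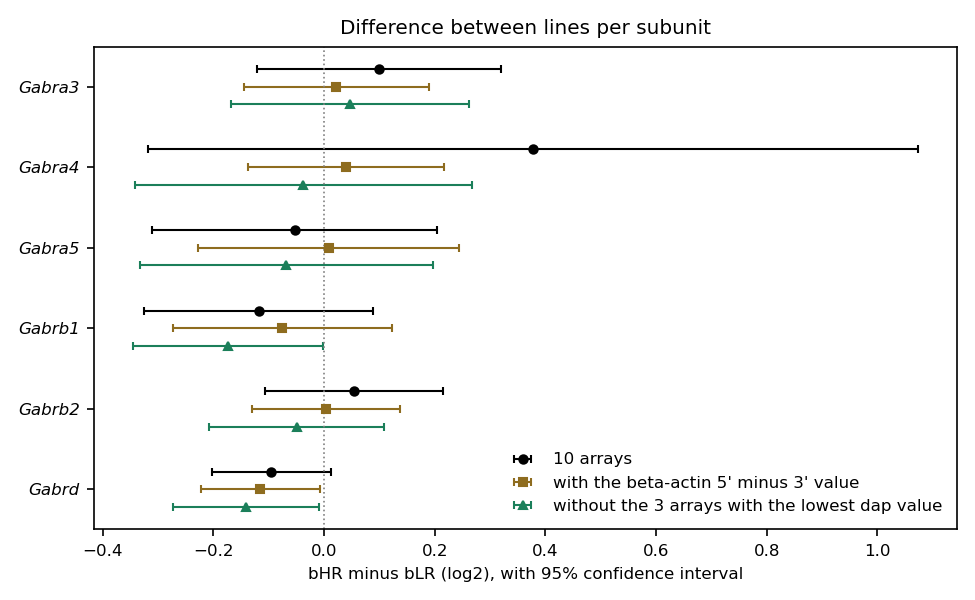
Difference bHR minus bLR (log2) for each subunit, with its 95% confidence interval, over 10 arrays, after adding the beta-actin value to the fit, and without the 5'-poor arrays. The Gabra4 estimate moves to 0.040 and -0.038 under those settings, while Gabrd stays between -0.14 and -0.095.

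Subunits were next set against each other within each array, to see whether transcripts of a subunit shifted relative to those of another. Receptor make-up itself was not measured. The difference of 2 members was compared between lines for all 15 pairs, and 0 passed after Benjamini-Hochberg adjustment over the pairs (two-sided exact permutation tests). With 5 against 5 arrays the smallest p of this test is 0.0079, so 1 pair alone could not pass over 15 pairs. At an unadjusted p under 0.05 there was 1 pair, Gabrb2 minus Gabrd. It was 1.23 ± 0.077 on bHR arrays and 1.08 ± 0.12 on bLR arrays (SD, 5 arrays each), 0.15 wider in bHR (exact p = 0.048, adjusted p = 0.476). No pair had an exact p under 0.05 with the beta-actin value taken out, with all 12 arrays, or in 6 of the 10 sets that leave out 1 array, and 3 pairs did without bHR replicate 6. Gabra4 and Gabrd, the partners of the tonic receptor in dentate granule cells, lay 0.62 ± 0.37 apart on bHR arrays and 0.14 ± 0.71 on bLR arrays (SD, 5 arrays each; exact p = 0.238, adjusted p = 0.675). Gabra3 minus Gabrd had an exact p of 0.063 and an adjusted p of 0.476, at -0.60 ± 0.16 on bHR arrays and -0.80 ± 0.12 on bLR arrays (SD, 5 arrays each).

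Each rat also had a score of its movement in an unfamiliar field, which ranged within lines. With line as a term, 0 of the 6 members changed with the score within lines (limma, adjusted p 0.989 for each) and 0% of all genes did. At an unadjusted p under 0.05 there were 0 of the 6 members, beside 4.12% of all genes. Gabrb2 had the steepest slope for its error, 0.091 log2 units per 100 beam breaks (95% confidence interval -0.0022 to 0.18), which was 0.036 without bLR replicate 6, and Gabra4 had 0.16 (-0.31 to 0.63). The Gabra4 slope was -0.18 without bLR replicate 3, the rat with the lowest score, at 319 beam breaks, and the array with the deepest 5' loss.

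Gabra4 moved with the 5' signal of the arrays. With line as a term, Gabra4 was lower on arrays with more 5' loss, by 0.76 log2 units for each unit of the beta-actin 5' minus 3' value (SE 0.057; limma adjusted p = 2.0e-05 over 9962 genes), which placed it 9th of all genes by p. The fit on this value, for all genes, was added after the data were seen. It gave 1 of the 6 members, in the positive direction, beside 13.3% of all genes, 5.28% with a positive and 7.98% with a negative slope. At an unadjusted p under 0.05 there were 3 of the 6, beside 27.2% of all genes. Within lines, over the 10 arrays, Gabra4 correlated with the beta-actin value by Pearson's r (0.975) and by Spearman's rho (0.988), each with a permutation p of 1e-05, the smallest that 100000 permutations can give, and an adjusted p of 6e-05 over the 6 members. Without bLR replicates 2 and 3, the arrays farthest from the median, r was 0.901 (permutation p = 0.0026, adjusted p = 0.016). The permutations moved line-centred values across lines, so the permutation p-values of these correlations are approximate. The call over all genes was lost without the 5'-poor arrays: the slope was 0.90 (95% confidence interval 0.25 to 1.56) with an adjusted p of 0.681, and 0 genes passed by limma, with 698 at an unadjusted p under 0.05.

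Gabra3 had a slope of 0.17 per unit of the beta-actin value (95% confidence interval 0.054 to 0.29; limma adjusted p = 0.056), with r of 0.725 (permutation p = 0.018, adjusted 0.054) and rho of 0.661 (permutation p = 0.044, adjusted 0.072). It passed when either of 2 arrays was left out: the adjusted p was 0.019 without bLR replicate 1 and 0.043 without bHR replicate 5. The slope of Gabrb2 was 0.11 (0.019 to 0.21; adjusted p = 0.109). Its rho was also 0.661, and its r of 0.683 depended on bLR replicates 2 and 3, and without them it was -0.064. Gabrd had a slope of 0.045 (-0.030 to 0.12).

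Gabra5 and Gabrb1 pointed the other way, with slopes of -0.14 (95% confidence interval -0.30 to 0.026) and -0.097 (-0.23 to 0.041), and neither passed. For Gabra5 the r with the beta-actin value was -0.496 (permutation p = 0.145, adjusted 0.201) and rho was -0.648 (permutation p = 0.048, adjusted 0.072). For Gabrb1 r was -0.437 (permutation p = 0.209, adjusted 0.209) and rho was -0.552 (permutation p = 0.105, adjusted 0.123). The intervals of both slopes lay wholly below that of Gabra4, which was 0.63 to 0.88. The part that cell content plays in the Gabra4 slope was not tested. By the same fit 5.28% of all genes passed with a positive and 7.98% with a negative slope. Beside these shares, 2 of 7 pyramidal cell markers and 4 of 8 astrocyte markers had a positive slope that passed. So did 1 of 11 interneuron markers, 2 of 8 oligodendrocyte markers, 0 of 12 choroid plexus markers and 0 of 5 dentate granule cell markers, 1 of which passed with a negative slope. Of the markers of neurons of all kinds, 1 of 7 passed in each direction, and of 7 thalamus markers 1 passed with a negative slope.

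**Figure D3:**
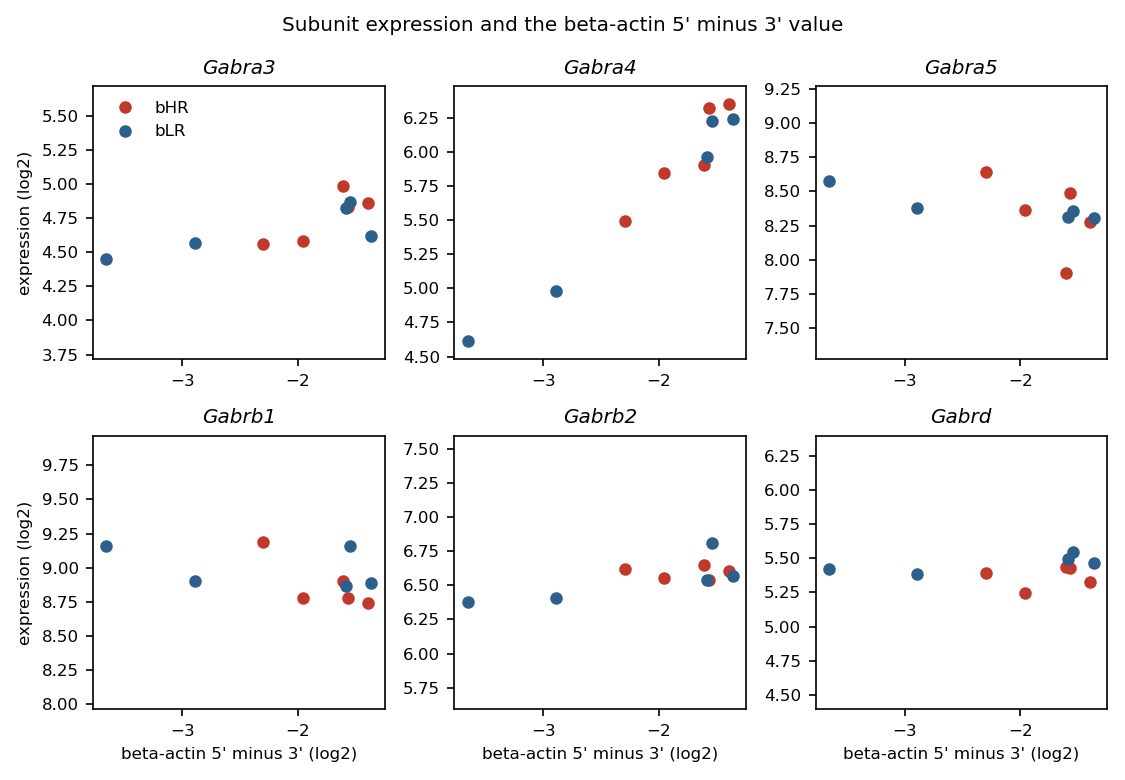
Expression (log2) of each subunit against the beta-actin 5' minus 3' value (log2) on the 10 passing arrays, bHR and bLR in separate colours, each panel covering the same height on the log2 axis. Gabra4 drops along with the beta-actin value in a single course for both lines (r = 0.975 within lines), and the other 5 panels stay within a narrow band.

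Other genes of GABA signalling gave the setting for the members. Of 43 genes listed, 38 were measured. In bHR against bLR 23 had a higher and 15 a lower mean, and 0 passed by limma, beside 0% of all genes. An unadjusted limma p under 0.05 was found for 1 of the 38, beside 2.94% of all genes. Their median difference was 0.021 on the log2 scale, against 0.00078 over all genes. The gene under 0.05 was Akap5, which anchors kinases and calcineurin at postsynaptic sites. It averaged 4.55 ± 0.080 on bHR arrays and 4.75 ± 0.065 on bLR arrays (SD, 5 arrays each), and the difference was -0.20 (limma adjusted p = 0.992). Its signal was dim, since 15.7% of the genes measured had a lower mean. Next by p came the theta subunit Gabrq (0.082) and Gabarap, which binds the gamma2 subunit and moves receptors (-0.20). The GABA transaminase Abat differed by 0.063, the GABA transporter Slc6a13 by 0.076 and the kinesin adaptor Trak1 by -0.14, and none of these passed. Trak1 differed by -0.054 with the beta-actin covariate and by -0.052 without the 5'-poor arrays, and by -0.086 without bLR replicate 2 and -0.087 without bLR replicate 3. Gabarap differed by -0.30 without the 5'-poor arrays, and Slc6a13 by 0.043 without bHR replicate 2.

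Further GABA-A and rho subunits measured, 9 of 11 listed, had 5 higher and 4 lower means in bHR. By limma 0 of the 9 passed, beside 0% of all genes, and 0 had an unadjusted p under 0.05, beside 2.94%. The widest difference among these subunits was that of Gabrg1 (0.22), a gamma subunit, and without the 5'-poor arrays it was -0.0021. The others lay between -0.070 (Gabre) and 0.082 (Gabrq). Within that span were Gabrp (0.064), Gabrr1 (0.0079), Gabra6 (0.0023), Gabrr2 (-0.0072), Gabrr3 (-0.0095) and Gabrg3 (-0.039). The signals of these 8, from Gabre to Gabrg3, were dim, and at most 25.7% of genes had a lower mean than any of them.

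On the beta-actin value, 6 of these 38 GABA genes passed with a positive and 5 with a negative slope, against 5.28% and 7.98% of all genes. Gabrg1 had a slope of 0.51 (SE 0.067), with a limma adjusted p of 0.000753. It read 6.12, 5.80, 6.28, 6.33 and 5.56 on bHR replicates 2 to 6, against 6.17, 5.36, 5.21, 5.92 and 6.31 on bLR replicates 1, 2, 3, 4 and 6. As for Gabra4, the lowest reading of bHR was on replicate 6 and the lowest of bLR were on replicates 2 and 3.

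The steepest slope among GABA genes was that of Nsf, an ATPase that takes apart SNARE complexes and binds GABA-A receptor beta subunits during their transport, at 1.24 (SE 0.057; limma adjusted p = 8.3e-07). It stood 1st of all 9962 genes by p. Nsf read 9.73, 9.14, 9.81, 9.39 and 8.72 on bHR replicates 2 to 6. On bLR replicates 1, 2, 3, 4 and 6 it read 9.52, 7.85, 6.84, 9.44 and 9.72. The spread within lines exceeded the difference between them, 0.68 (SE 0.51), and that difference was -0.045 without the 5'-poor arrays.

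Positive slopes that passed were also found for Gad2 (0.33), which makes GABA in terminals, Aldh5a1 (0.18), which ends GABA breakdown, Ubqln1 (0.16), which stabilizes receptors inside the cell, and Nlgn2 (0.14), an adhesion protein of inhibitory synapses. Negative slopes that passed were those of both chloride transporters, Slc12a2 (-0.30), which loads chloride, and Slc12a5 (-0.13), which extrudes it. The same held for Rdx (-0.24), which anchors alpha5 receptors to actin, Plcl1 (-0.19), which takes part in receptor trafficking, and Trak1 (-0.19). The calls of Aldh5a1, Nlgn2, Plcl1, Slc12a5 and Ubqln1 were lost in some of the 10 fits that leave out 1 array, Slc12a5 in 8 of them and Ubqln1 in 6. None of the 11 calls, Gabrg1 and Nsf included, was kept without the 5'-poor arrays. The slopes of Gabrg1 and Nsf were then 0.84 (95% confidence interval 0.18 to 1.501) and 1.02 (0.32 to 1.73), and those of Slc12a2 and Slc12a5 were -0.32 and -0.29, with wider intervals that held 0. The slopes of Gad2 and Nlgn2 were 0.076 and 0.052. With the GAPDH control in place of beta-actin, Slc12a2 (limma adjusted p = 0.052), Slc12a5 (0.090), Rdx (0.081) and Ubqln1 (0.053) did not pass.

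**Figure D4:**
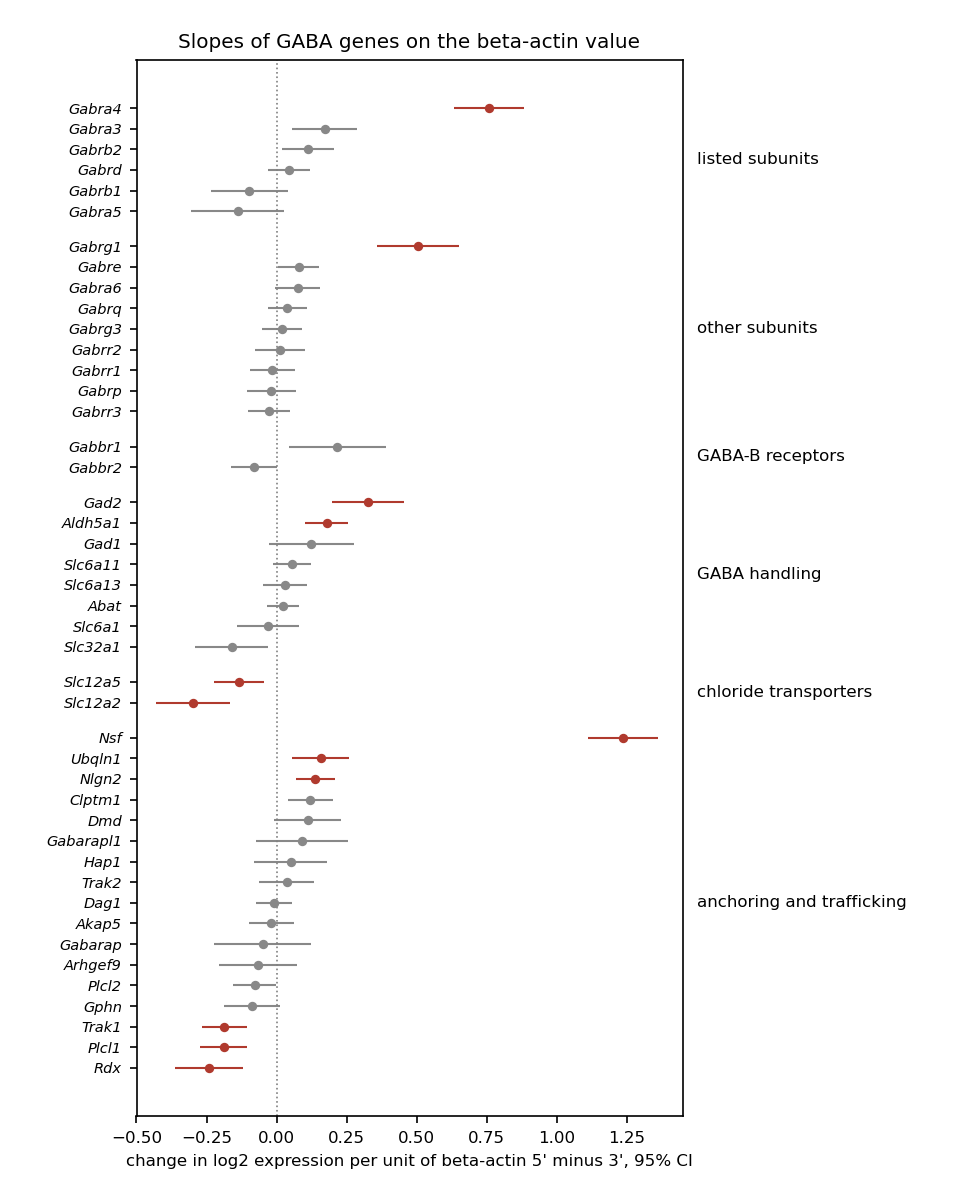
Change in log2 expression per unit of the beta-actin 5' minus 3' value, with line as a term and 95% confidence intervals, for the 6 measured members and 38 other GABA genes by role. Red marks an adjusted p under 0.05 over all genes. Nsf (1.24), Gabra4 (0.76) and Gabrg1 (0.51) stand to the right of the rest.

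The members were also compared by their course over the 10 arrays after the line means were removed, as a description, since genes read on the same arrays share the RNA and its quality. Gabra4 ran with Gabrg1 (r = 0.921), and against Gabra5 (r = -0.372) and its neighbour Gabrb1 (r = -0.426). With the beta-actin value taken out, r with Gabra4 was 0.253 for Gabrg1, 0.569 for Gabra5 and 0.00018 for Gabrb1. Gabrb1 and Gabrb2 had an r of 0.261 before that step and 0.852 after it. Gabra3 and Gabra5 were opposed before and after that step (r = -0.702 and -0.573). Gabra3 and Gabrd ran together before and after it (0.676 and 0.548).

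Among all genes, those most like Gabra4 were Hk1 (r = 0.994), the first enzyme of glycolysis, Zbtb18 (0.991), a transcriptional repressor of developing neurons, and Eps15 (0.990), an endocytic adaptor. For Gabra5 they were Las1l (0.965), Mfsd14b (0.942) and Sdf2 (0.942), and for Gabra3 they included Birc2 (0.946) and Psd4 (0.931). Gabrb1 was nearest to Urb2 (0.954), Zbtb41 (0.948) and Cpeb4 (0.926), and Gabrb2 to Slc20a2 (0.961), Dcps (0.950) and Dennd10 (0.942). Gabrd, with the lowest likeness, was nearest to Cyp2d2 (0.910), Zng1a (0.882) and Dpysl2 (0.880). Of the 18 genes most like a member, only 5 were still among the first 3 once the beta-actin value was taken out, and none of the 3 for Gabra4 was, where r was then 0.889 for Hk1, 0.897 for Zbtb18 and 0.891 for Eps15.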

How the data were processed

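Total RNA of whole hippocampus was hybridised to 12 arrays. The authors deposited log2 expression values from RMA (affy 1.54.0 is named in the submitters' processing notes) over a custom grouping of probes by Entrez gene (version 19.0.0), per the labels' design text; the table holds all 12 arrays, so the quantiles that RMA shares between arrays may include the failed ones. Where in a transcript the probes of a gene lie is not given in the sources used here. The table held 10019 probe sets, of which 57 controls were left out of the tests, and 0 columns had no sample.

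Arrays that failed the submitters' quality control, 2 in all, entered no main test. Genes were fitted with limma 3.58.1 (R 4.3.3) by lmFit and eBayes (Benjamini-Hochberg over 9962 genes, threshold 0.05), with line as the term, and then with the locomotor score or the beta-actin value centred within line. Single values were compared by exact permutation tests (scipy 1.17.1). Array values have no read depth, and 5 arrays per line limit the precision. RefSeq (GRCr8) named 9831 genes by Entrez number. The limma comparison of bHR with bLR was tested on simulated data, with noise drawn separately for each gene and array.

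The subunits and the gene lists were chosen with earlier results of these data known. The rule names all measured members and other subunits, with the 6 other GABA genes of smallest p and the 3 genes most like each member; Nsf and the GABA genes that passed on the beta-actin value were chosen after their values were seen, and a few results under the rule are not reported here. Gabra2 was listed but not analysed here, so 15 and not 21 pairs were compared. Alternatives were all 12 arrays, array weights, each array left out, the lowest 25% of genes left out, repeated quantile normalization, median centring, another prior, the beta-actin or Ttr value as a covariate, and the 5'-poor arrays left out.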

Additional observations from a re-analysis of the deposited data

Results flagged for a closer look

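Of 12 sets of 5 arrays (6 subunits in 2 lines), 1 held an array that stood far from the other 4 of its line; chance gives about 5% of sets. Gabra5 in bLR was highest on replicate 3, at 8.58, against 8.31 to 8.38 on the others, and that array also had the lowest beta-actin 5' minus 3' value.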

How the results depend on the processing

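In bHR against bLR the count of genes that passed was 0 under every alternative run, and no member or other named GABA gene passed under any. Directions turned for Gabra4 (-0.038), Gabrb2 (-0.050), Gabrg1 (-0.0021) and Nsf (-0.045) without the 5'-poor arrays. With the beta-actin covariate they turned for Gabra5 (0.0084) and Gabrg1 (-0.0018), and with the Ttr covariate for Gabra5 (0.0074). Leaving out 1 array gave -0.13 to 0.055 for Gabra5, 0.13 to 0.54 for Gabra4, 0.043 to 0.15 for Gabra3, -0.20 to -0.077 for Gabrb1, 0.014 to 0.12 for Gabrb2 and -0.11 to -0.066 for Gabrd. Gabra3 was too dim to be kept when the lowest 25% of genes were left out. The slopes on locomotor score turned for Gabra3 (-0.010) and Gabra4 (-0.055) when the beta-actin value was held. Single arrays left out gave -0.034 to 0.079 for Gabra3, -0.18 to 0.26 for Gabra4, -0.12 to 0.0021 for Gabra5, 0.017 to 0.17 for Gabrb1 (highest without bLR replicate 3), 0.036 to 0.11 for Gabrb2 and 0.016 to 0.044 for Gabrd. On the beta-actin value 1321 genes passed, and 713 to 1302 with 1 array left out, the lowest without bLR replicate 3; 0 passed without the 3 arrays, where the slope of Gabra4 was 0.90 and fewer arrays entered. With GAPDH in place of beta-actin 926 genes passed and the slope of Gabra4 was 1.14 (limma adjusted p = 0.00058), while 4 of the 11 other GABA genes that had passed did not. The slope of Gabra3 ran from 0.15 to 0.23 with 1 array left out. The r of Gabrb2 was -0.064 without bLR replicates 2 and 3. Of the 18 genes most like a member, 5 stayed after the beta-actin value was taken out. The pairs that passed were 0 throughout. The numbers in the sample titles were shared by 3 arrays of each line, and what they stand for is not given. Arrays with the same number had r of deviations of -0.33, 0.26 and 0.41, and whether the number pairs the arrays was not tested. With that replicate block 0 genes passed by limma, with 1468 at an unadjusted p under 0.05, beside 1039 over those 6 arrays without the block. Gabra4 differed by 0.99 in both fits, with an SE of 0.19 with the block (limma adjusted p = 0.185) and 0.33 without it (limma adjusted p = 0.474). The causes of these changes were not tested.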

Other observations

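The failed arrays entered no main test, only the alternatives with all 12 arrays. bHR replicate 1 read 4.99 for Gabra3, 5.74 for Gabra4, 6.63 for Gabra5, 6.91 for Gabrb1, 5.99 for Gabrb2 and 5.47 for Gabrd. On bLR replicate 5 the values were 4.88, 5.51, 7.15, 8.13, 6.12 and 5.46 in the same order of genes. Both arrays were below every passing array of their line for Gabra5, Gabrb1 and Gabrb2. The beta-actin 5' minus 3' value was -1.26 on bHR replicate 1, above every passing array. It was -1.42 on bLR replicate 5, near the top of the passing arrays of its line. The same value for dap was 1.04 and 0.98 on these arrays, against -1.82 to -0.072 on the passing arrays.

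The other members' promoters differed in base composition. The windows of Gabra5 and Gabrd held 76.3% and 73.7% G and C, those of Gabra3 and Gabrb2 39.3% and 44.0%. The Sp1 box on either strand was found 4 times in Gabrd, where adjoining boxes share a base, and 1 time in Gabra5. The TATA box on either strand was found 1 time in Gabra3.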
